A study of Mus musculus with 6 samples.

Results

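The 10 genes described here, Chrna1, Chrnb1, Chrnd, Chrng, Musk, Clcn1, Ryr1, Cacna1s, Cacng1 and Scn4a, encode the receptor and kinase of the neuromuscular junction and the channels that turn its signal into a muscle action potential and calcium release. They were taken by symbol from the 49492 gene rows of the deposited table, and all 10 were found and tested. Poly(A) RNA was sequenced from palatal shelves, the outgrowths that form the roof of the mouth, of C57BL mouse embryos at E14.5. Control RNA, in 3 libraries, was from PRMT1 fl/fl embryos, in which Prmt1, the gene of the main asymmetric arginine methyltransferase, is flanked by loxP sites. Deletion RNA, also in 3 libraries, was from Wnt1-Cre; PRMT1 fl/fl embryos, so both groups carry the floxed alleles. Wnt1-Cre acts in the neural crest, the source of most palatal mesenchyme, whereas skeletal muscle cells of the head descend from mesoderm, so the deletion is not directed to them. No library carried Cre without the floxed alleles, and an effect of Cre itself cannot be told apart from one of the deletion.

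The genes were selected on their measured values, namely the fold changes and edgeR calls of the same deletion against control comparison in these 6 libraries. Their differences between the groups are therefore given as a description, with fold changes and standard errors but no p-value, and no conclusion is rested on them.

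At a neuromuscular junction, acetylcholine from a motor axon opens a pentameric receptor in the muscle membrane, which before birth is built from alpha, beta, delta and gamma subunits. The receptor kinase MuSK, driven by agrin from the nerve through LRP4, clusters these receptors beneath the axon. The depolarisation opens a voltage-gated sodium channel, is sensed by an L-type calcium channel in the transverse tubule and releases calcium through the ryanodine receptor, while a chloride channel stabilises the resting membrane. Young muscle fibres make the receptor along their whole length, under the control of myogenic E-box-binding factors such as MyoD and myogenin, and later restrict it to the synapse.

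Each library is called by its number in the table, control 212, 213 and 220 and deletion 208, 211 and 221, and held 44919889 to 50022829 estimated counts. The labels do not say that each came from a separate embryo, so p-values measure only the spread between these libraries, which may be technical. Prmt1 measured 258, 250 and 246 CPM (counts scaled to library size by TMM) in the controls against 201, 206 and 217 CPM in the deletion libraries, lower in each of the latter. In controls 212 and 213 Xist did not exceed 16.0 CPM and 4 Y-linked genes summed to 247 CPM or more, whereas control 220 and all deletion libraries had 3384 CPM of Xist or more and a Y-linked sum no higher than 0.402 CPM. Control 220 was thus the single control of the same sex as the deletion libraries. Embryonic over adult beta-globin, a ratio that falls as development proceeds, was 0.0946, 0.0779 and 0.200 in controls 212, 213 and 220. In deletion 208, 211 and 221 it was 0.191, 0.196 and 0.320. Controls 212 and 213, which differ in sex from all other libraries, thus also had the lowest ratios, and deletion 221 had the highest. The part of sex or stage in the values below was not tested beyond the fits named there.

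All 10 genes had higher mean levels in the deletion libraries, by 1.75-fold to 4.40-fold. In 9 of them every deletion library lay above every control, a separation seen in 14.1% of all 19284 genes tested, while in 13.5% every deletion library lay below every control. Scn4a was the exception. By edgeR's quasi-likelihood test with adjustment over all tested genes, 8 of the 10 were called higher (all but Musk and Scn4a) and 0 lower, where 3.65% of tested genes were called higher, 3.37% lower and 7.01% in either direction. The count follows from how the genes were selected, and nothing is read from it. The median log2 fold change (deletion minus control) was 1.15, against -0.000135 over all tested genes. In whole tissue, more muscle cells and more RNA per muscle cell cannot be told apart.

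**Figure D1:**
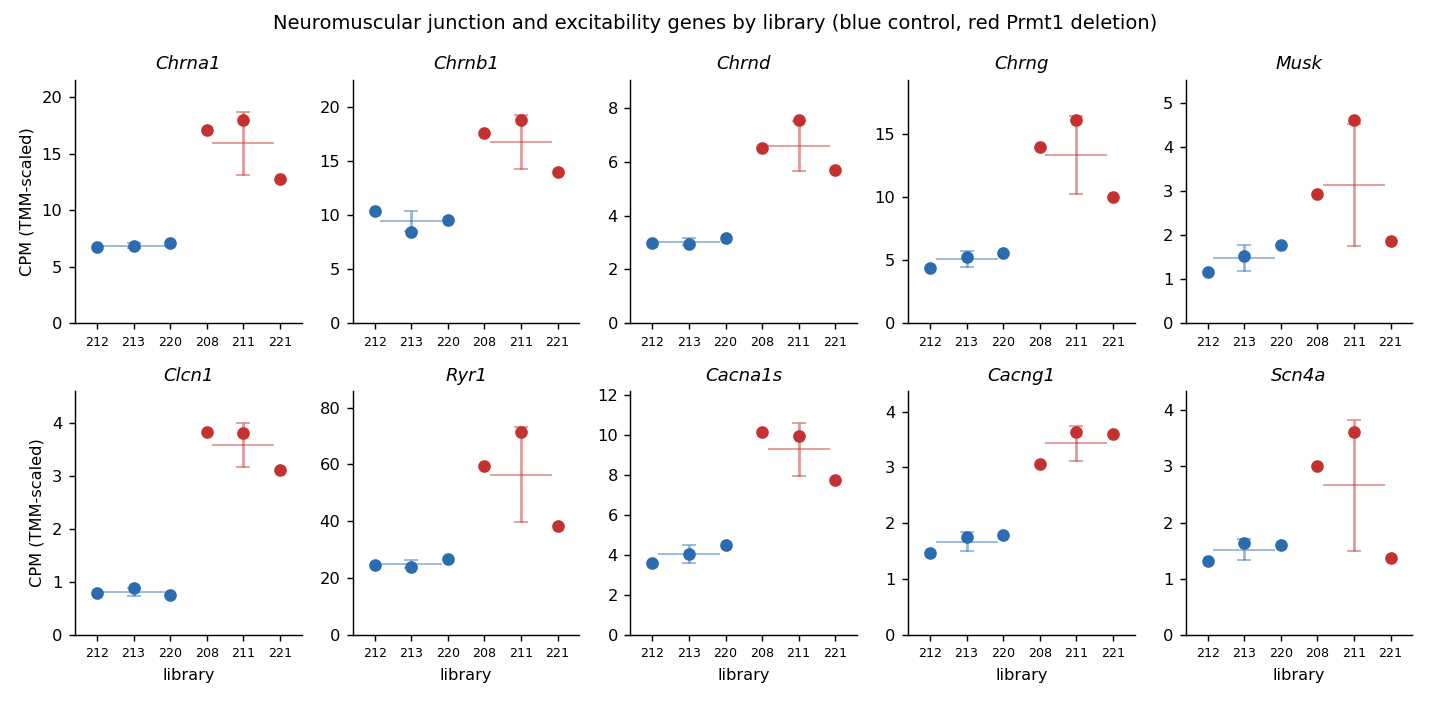
TMM-scaled CPM (vertical axis, from 0) of each of the 10 genes in every library (horizontal axis). Blue points are control libraries, red points Prmt1 deletion libraries, and bars give the mean and SD of 3 libraries. Deletion 221 is the lowest of the deletion libraries in 9 genes, and in Scn4a it falls among the controls.

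The acetylcholine receptor was represented by its 4 embryonic subunits. Chrna1 encodes the alpha subunit, which carries most of the acetylcholine-binding site, and lies on chromosome 2 (73563215 to 73580338, GRCm38, minus strand). It measured 6.70, 6.79 and 7.06 CPM in controls 212, 213 and 220, and 17.1, 17.9 and 12.7 CPM in deletion 208, 211 and 221. The controls lay within a narrow band and every deletion library lay well above it. The means were 6.85 ± 0.191 and 15.9 ± 2.80 CPM (SD, n = 3 for each group here and below), a log2 fold change of 1.22 ± 0.13 (SE).

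Chrng encodes the gamma subunit, specific to the embryonic receptor, and lies on chromosome 1 (87204657 to 87212694, plus strand), next to Chrnd on the same strand. Its levels were 4.41, 5.25 and 5.59 CPM in controls against 14.0, 16.1 and 10.02 CPM in deletion libraries. Of the subunits it had the largest fold change, 2.63-fold (log2 fold change 1.40 ± 0.17, SE). The groups were far apart, with the lowest deletion library above the highest control.

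Chrnd, the delta subunit gene (chromosome 1, 87190607 to 87200070, plus strand), was at 2.98, 2.93 and 3.17 CPM in controls against 6.53, 7.56 and 5.71 CPM in deletion libraries. Its log2 fold change was 1.12 ± 0.16 (SE), and the groups did not overlap. Chrnb1, the beta subunit gene (chromosome 11, 69784036 to 69795943, minus strand), was at 10.4, 8.47 and 9.51 CPM in controls against 17.6, 18.8 and 14.0 CPM in deletion libraries. Here too every deletion library was above every control, and the log2 fold change was the smallest of the subunits, 0.83 ± 0.13 (SE).

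The epsilon subunit, which replaces gamma in the adult receptor, was almost absent. Chrne had 6, 3 and 4 estimated counts in the controls and 1, 1 and 4 in the deletion libraries, too few to be tested, against 222 to 735 for Chrng. At this depth no difference in Chrne was detectable. In every library Chrng thus had the higher count of the pair.

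Levels of different subunits were compared per kilobase of merged exons. Chrnb1 made up 54.0%, 47.5% and 49.0% of the 4 subunits' sum in the controls and 43.0%, 42.0% and 43.9% in the deletion libraries. The Chrng share was 13.9%, 17.9% and 17.5% in controls and 20.8%, 21.9% and 19.2% in deletion libraries. The Chrnb1 share was lower, and the Chrng share higher, in each deletion library than in any control. Chrna1 shares were 21.0 ± 0.939% and 23.4 ± 0.532%, also without overlap, and Chrnd shares of 12.4 ± 0.392% and 13.03 ± 0.789% overlapped. With the longest coding transcript as length the mean shares of Chrnb1 were 49.8% and 42.3% and those of Chrng 20.8% and 25.9%, again without overlap. The 4 shares are parts of the same sum, so a lower share of Chrnb1 raises the others. Their separations are therefore not separate results. How often shares within other sets of genes separated in this way was not counted.

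**Figure D2:**
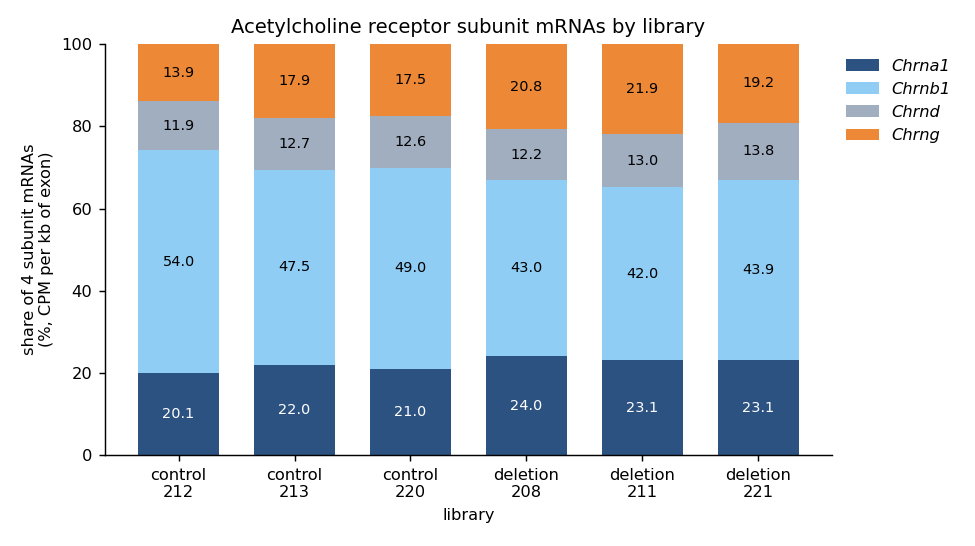
Share (%, vertical axis) of each of the 4 embryonic acetylcholine receptor subunit mRNAs in their sum per kilobase of exon, in each library (horizontal axis). Chrnb1 (light blue) lies at 47.5% to 54.0% in controls and 42.0% to 43.9% in deletion libraries, and Chrng (orange) at 13.9% to 17.9% and 19.2% to 21.9%.

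The stretches before the transcription starts of these genes were inspected, since E-boxes are the known sites of myogenic factors in receptor genes. RefSeq promoter entries (GRCm38.p6) were held for 8 of the 10 genes, without Chrnd and Cacng1, and the 250 bases before each RefSeq start were searched on both strands. These starts differ from the GENCODE gene limits given here: the windows of Chrng and Scn4a lie wholly inside the gene, that of Chrng in the intron of a transcript with an earlier start, and those of Cacna1s, Ryr1, Chrnb1 and Musk reach into it. The E-box CAGCTG occurred in 4 of 8, in pairs in Chrna1 (92 and 44 bases before the start) and Chrng (155 and 132 bases) and singly in Cacna1s (123 bases) and Musk (68 bases). Among 32851 promoter windows of the same length, 13.0% held this motif at least 1 time and 1.3% at least 2 times. The looser E-box CANNTG, which includes CAGCTG, occurred in 6 of 8 genes and in 66.2% of windows. A match to the MEF2 motif was present in Clcn1 alone, CTATAAATAG at 51 bases before the start, and in 2.9% of windows. The synaptic N-box TTCCGG (12.0% of windows) and the CArG motif (1.5%) had no match in the 8. These matches describe letters in the windows and do not show binding. The 4 windows shown are those of the 2 receptor genes with paired E-boxes, of Musk with 1, and of Clcn1 with its MEF2 match, each 5′ to 3′ on the gene's own strand with the CAGCTG and MEF2 matches in capitals.
Chrna1 (chr2:73580339-73580588, minus strand): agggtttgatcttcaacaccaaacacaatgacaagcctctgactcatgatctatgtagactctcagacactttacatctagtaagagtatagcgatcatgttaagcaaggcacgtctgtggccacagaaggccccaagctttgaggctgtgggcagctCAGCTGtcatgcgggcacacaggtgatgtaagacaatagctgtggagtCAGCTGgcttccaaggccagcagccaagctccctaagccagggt
Chrng (chr1:87205561-87205810, plus strand): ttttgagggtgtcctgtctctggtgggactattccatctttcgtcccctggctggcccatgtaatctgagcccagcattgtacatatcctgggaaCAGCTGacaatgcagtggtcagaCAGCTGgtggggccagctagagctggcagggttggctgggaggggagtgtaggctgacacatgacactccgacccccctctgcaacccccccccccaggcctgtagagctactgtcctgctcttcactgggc
Musk (chr4:58285712-58285961, plus strand): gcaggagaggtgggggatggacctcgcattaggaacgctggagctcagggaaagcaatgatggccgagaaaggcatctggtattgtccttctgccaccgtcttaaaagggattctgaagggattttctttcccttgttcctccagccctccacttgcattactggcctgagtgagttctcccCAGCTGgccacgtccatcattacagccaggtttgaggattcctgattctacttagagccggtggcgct
Clcn1 (chr6:42286435-42286684, plus strand): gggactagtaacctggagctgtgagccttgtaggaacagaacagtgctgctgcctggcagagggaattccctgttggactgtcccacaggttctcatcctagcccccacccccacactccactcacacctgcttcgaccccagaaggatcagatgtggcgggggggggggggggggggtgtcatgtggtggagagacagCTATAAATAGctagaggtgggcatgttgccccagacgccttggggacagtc

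Musk, the receptor tyrosine kinase that gathers the receptor at the synapse (chromosome 4, 58285960 to 58374303, plus strand), was expressed at a low level. It measured 1.15, 1.52 and 1.76 CPM in controls against 2.92, 4.601 and 1.85 CPM in deletion libraries. Deletion 221 lay just above control 220, so the groups did not overlap but came close. The log2 fold change was 1.08 ± 0.32 (SE), and the spread among deletion libraries, 44.3% of their mean, was the widest of the 10 genes. Musk was not called, and without deletion 221 it was, at a log2 fold change of 1.35.

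Excitation-contraction coupling was represented by the voltage sensor and the release channel. Cacna1s encodes the pore subunit of the skeletal L-type calcium channel (chromosome 1, 136052750 to 136119822, plus strand). Its levels were 3.58, 4.04 and 4.47 CPM in controls against 10.2, 9.95 and 7.77 CPM in deletion libraries. Each deletion library exceeded every control, with a log2 fold change of 1.21 ± 0.15 (SE).

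Cacng1, the gamma subunit of the same channel (chromosome 11, 107703218 to 107716522, minus strand), measured 1.47, 1.76 and 1.78 CPM in controls against 3.06, 3.64 and 3.59 CPM in deletion libraries. It was the single gene of the 10 in which deletion 221 was not the lowest deletion library. Its log2 fold change was 1.04 ± 0.19 (SE). Ryr1, the sarcoplasmic reticulum calcium release channel (chromosome 7, 29003344 to 29125179, minus strand), had the highest CPM of the 10 genes and also the longest transcript. It was at 24.4, 24.0 and 26.6 CPM in controls against 59.5, 71.4 and 38.3 CPM in deletion libraries. Deletion 221 stood between the controls and the other deletion libraries, and the log2 fold change was 1.17 ± 0.24 (SE). Antisense genes overlap both Ryr1 (Gm26604, at most 20.5 estimated counts) and Cacna1s (Gm37759, at most 18.7), and the estimated counts were not whole in 6 of 6 libraries for Ryr1 and 5 of 6 for Cacna1s. Their values are uncertain by what was divided with other genes, which was not measured here. The ratio of Cacna1s to Ryr1 per kilobase of exon was 0.537 ± 0.0420 in controls and 0.570 ± 0.106 in deletion libraries, with overlapping ranges.

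Clcn1 encodes the muscle chloride channel whose loss causes myotonia, and its transcript is known to rise as muscle fibres mature. It lies on chromosome 6 (42286685 to 42315756, plus strand). It had the lowest control level per kilobase of merged exon of the 10 genes and the largest fold change. It measured 0.795, 0.889 and 0.748 CPM in controls (40, 44 and 34 estimated counts) and 3.82, 3.81 and 3.10 CPM in deletion libraries (191, 174 and 139 counts). All deletion libraries, including 221, were far above the controls, and the log2 fold change was 2.14 ± 0.21 (SE), or 4.40-fold. The 3′ end of Clcn1 overlaps that of Fam131b on the opposite strand (Fam131b, 42315312 to 42324643). In all 6 libraries the estimated count of Clcn1 was not whole, while its sum with that of Fam131b was whole to within 0.01, so reads of the overlap had been divided between them and the value of Clcn1 is uncertain to that extent. Fam131b itself was at 388, 348 and 333 estimated counts in controls and 545, 409 and 354 in deletion libraries.

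Scn4a, the voltage-gated sodium channel that carries the muscle action potential (chromosome 11, 106318592 to 106353288, minus strand), was the 1 gene of the 10 whose groups overlapped. Its levels were 1.31, 1.64 and 1.61 CPM in controls against 3.00, 3.62 and 1.36 CPM in deletion libraries. Deletion 221 lay below controls 213 and 220, so the groups overlapped. The log2 fold change was 0.81 ± 0.32 (SE) with all libraries and 1.12 without deletion 221, where Scn4a was called. Clcn1 and Scn4a differed in that library: their ratio per kilobase of merged exon was 0.698 ± 0.0912 in controls and 1.65, 1.37 and 2.96 in deletion 208, 211 and 221. With the longest coding transcript as length the ratio was 1.00 ± 0.131 in controls. In deletion 208, 211 and 221 it was then 2.37, 1.96 and 4.24.

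Ordered by level per kilobase of merged exon in the controls, Chrnb1 came first (3.74 ± 0.381 CPM per kb), then Chrna1 (1.56 ± 0.0435), Cacng1 (1.34 ± 0.139), Chrng (1.22 ± 0.146), Ryr1 (1.14 ± 0.0627), Chrnd (0.920 ± 0.0382), Cacna1s (0.615 ± 0.0680), Musk (0.391 ± 0.0810), Scn4a (0.216 ± 0.0255) and Clcn1 (0.149 ± 0.0132). Cacng1, Chrng and Ryr1 did not differ from each other beyond their ranges, and the other neighbours did not overlap. In the deletion libraries Chrnb1 was again highest (6.63 ± 0.990) and Scn4a was lowest (0.378 ± 0.165), below Clcn1 (0.660 ± 0.0761). With the longest coding transcript as length, Chrng and Ryr1 moved to the second and the third place in both groups. Scn4a (0.230 ± 0.0272) and Clcn1 (0.229 ± 0.0203) then overlapped in the controls. In the deletion libraries the mean of Clcn1 (1.01) then lay above that of Musk (0.913). The order in the middle and at the lower end thus depends on the gene model.

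The deletion libraries kept a common order. Deletion 211 was the highest in 8 genes and 208 in 2, while 221 was the lowest in 9. Against the control mean, deletion 221 was at 0.897-fold for Scn4a, 1.26-fold for Musk, 1.53-fold for Ryr1 and 3.83-fold for Clcn1. Averaged over the 10 genes as log2 levels centred on each gene's mean, deletion 208, 211 and 221 stood at 0.66, 0.86 and 0.23 and controls 212, 213 and 220 at -0.69, -0.57 and -0.50.

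These steps were also seen in genes of the muscle fibre that are not junction or channel genes. Those genes, like the lists below, were chosen with earlier results of these data known. Their counts and p-values are therefore a description and give no independent support. A list of 28 myogenic regulators and sarcomere genes was at -0.47, -0.58 and -0.45 in controls 212, 213 and 220 and at 0.51, 0.87 and 0.11 in deletion 208, 211 and 221 on the same centred log2 scale. Of its 28 genes 16 rose and 0 fell by edgeR (25 and 0 at an unadjusted p under 0.05, 23 and 0 with DESeq2, 22 and 0 with limma voom), with a median log2 fold change of 1.13. Their summed level was 937 to 1015 CPM in controls against 1482 to 2424 CPM in deletion libraries. For comparison with this list and those below, 3.65% of all tested genes were called higher by edgeR, 5.64% with DESeq2 and 3.25% with limma voom. The share of all genes at an unadjusted p under 0.05 was not counted, so nothing is read from the counts at that threshold. Myod1 and Myog, the factors that start and drive muscle differentiation, rose 2.19-fold and 2.35-fold (edgeR adjusted p = 0.00107 and 0.000218). Des, the muscle intermediate filament gene, rose 1.92-fold (edgeR adjusted p = 0.00107). Actc1, the main embryonic sarcomeric actin, rose 2.30-fold (edgeR adjusted p = 0.0135), while Acta1 had a 1.99-fold higher mean without passing (edgeR adjusted p = 0.0611). With embryo sex as a covariate 5 of the 28 were called (Myod1, Myog, Tmem8c, Cdh15 and Tnnc1) and the median was 1.12.

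Set against the mean log2 level of that muscle list in the same library, most of the 10 genes no longer separated the groups. The difference between deletion and control means was 0.20 for Chrna1, 0.20 for Cacna1s, 0.13 for Ryr1, 0.12 for Chrnd, 0.04 for Cacng1, 0.0033 for Musk, -0.18 for Chrnb1 and -0.30 for Scn4a, each with overlapping libraries. Clcn1 and Chrng were the exceptions. Clcn1 stood at -4.36, -4.09 and -4.46 in controls and at -3.09, -3.46 and -2.99 in deletion libraries, a difference of 1.13 (SD 0.19 and 0.24). Chrng stood at -1.91, -1.54 and -1.58 in controls and at -1.22, -1.38 and -1.30 in deletion libraries, a difference of 0.38 (SD 0.20 and 0.079). Both thus remained above every control in every deletion library when set against the muscle list. For Chrng the margin was small, -1.38 in deletion 211 against -1.54 in control 213. The reference is a plain mean that includes genes with smaller changes than the list median of 1.13. Among these were Mef2c (log2 fold change -0.17), Ckm (0.38) and Myf6 (0.59, at most 31 estimated counts). The share of all tested genes that separated on this scale was not counted. No test was made on these selected genes.

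**Figure D3:**
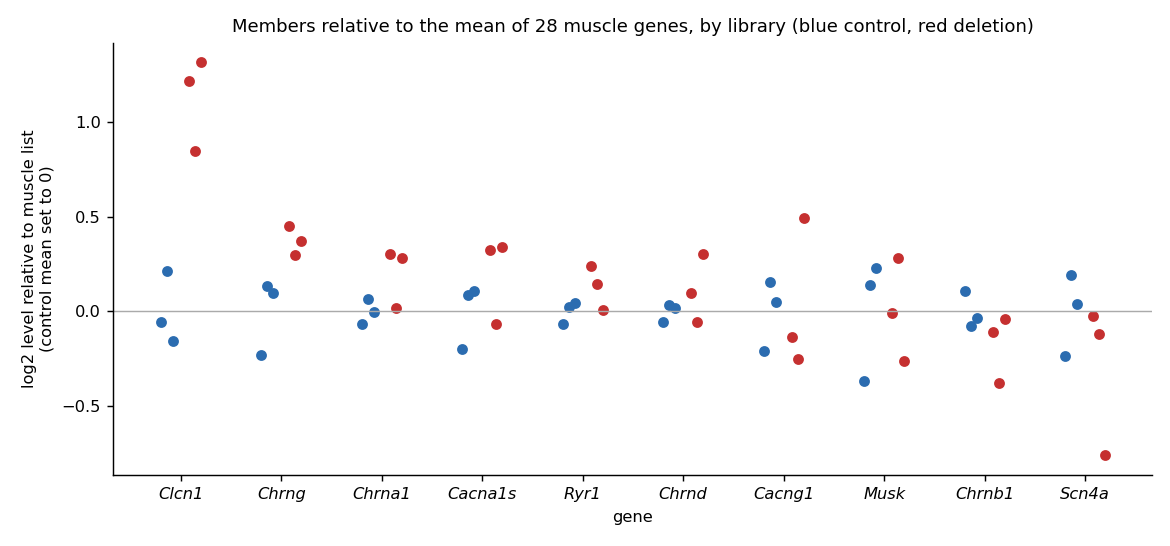
Log2 level of each of the 10 genes minus the mean log2 level of 28 muscle genes in the same library (vertical axis, control mean set to 0), for each gene (horizontal axis). Blue points are control libraries and red points deletion libraries. Clcn1 (difference 1.13) and Chrng (0.38) lie above every control in all 3 deletion libraries, and the other 8 genes overlap.

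Other genes of the synapse were mixed. Of 24 tested junction genes 5 rose and 0 fell by edgeR (8 and 1 at an unadjusted p under 0.05, 8 and 0 with DESeq2, 4 and 0 with limma voom), and the median log2 fold change was 0.09. Rapsn, which anchors the receptor to the cytoskeleton, averaged 3.14 ± 0.670 and 7.08 ± 1.61 CPM (control, then deletion, here and below) and rose 2.25-fold (edgeR adjusted p = 0.00849). Dok7, the adaptor that activates MuSK, averaged 4.04 ± 0.573 and 7.18 ± 1.11 CPM and rose 1.78-fold (edgeR adjusted p = 0.0141). Ache, the synaptic acetylcholinesterase, rose 1.62-fold, Dtna, of the dystrophin complex, 1.44-fold and the neuregulin receptor gene Erbb4 1.85-fold. Colq, the collagen tail that holds acetylcholinesterase in the synaptic cleft, was at 1.67 ± 0.414 and 2.97 ± 0.742 CPM (edgeR adjusted p = 0.0800).

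Lrp4 and Agrn, the MuSK co-receptor and its ligand, are also made by many other cells. Lrp4 was at 66.9 ± 13.9 and 66.4 ± 7.25 CPM, and Agrn at 525 ± 19.1 and 516 ± 26.7 CPM (log2 differences -0.01 ± 0.17 and -0.03 ± 0.06, SE; edgeR adjusted p = 0.982 and 0.854). Neither difference exceeded its spread. The junction count depended on single libraries: 2 rose without control 212, and 1 without control 213, deletion 208 or deletion 211. With sex as a covariate it was 0, with 5 at an unadjusted p under 0.05.

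Of 26 tested genes of excitation-contraction coupling and the triad, 9 rose and 0 fell by edgeR (13 and 3 at an unadjusted p under 0.05, 12 and 2 with DESeq2, 9 and 0 with limma voom), with a median log2 fold change of 0.33. Atp2a1, the calcium pump of fast fibres, averaged 15.8 ± 0.857 and 34.1 ± 5.90 CPM and rose 2.15-fold (edgeR adjusted p = 0.000676). Casq2 and Casq1, which store calcium in the sarcoplasmic reticulum, rose 2.26-fold and 1.96-fold. Cav3, the muscle caveolin, rose 2.26-fold. Stac3, the adaptor needed for the voltage sensor to open the release channel, rose 1.67-fold (edgeR adjusted p = 0.00936). Jph2 and Jph1, which hold the tubule against the reticulum, rose 1.52-fold and 1.35-fold, Tmem38a, a potassium channel of the reticulum, 1.42-fold and Bin1, which shapes transverse tubules, 1.27-fold.

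Other genes of this list gave other values, and some of them are also expressed outside skeletal muscle. Over the 26 genes, every deletion library lay above every control in 13 and below every control in 3. Across all tested genes the shares were 14.1% and 13.5%, and nothing is read from the count of 3. Cacna2d1, the alpha2delta subunit, was at 105 ± 13.9 and 102 ± 20.4 CPM, and Atp2a2, the pump of slow muscle and non-muscle cells, at 246 ± 16.0 and 239 ± 17.7 CPM (edgeR adjusted p = 0.904 and 0.784). Cacnb1, the beta subunit, was at 21.7 ± 1.19 and 27.0 ± 3.40 CPM (edgeR adjusted p = 0.0769). Ryr3, a second ryanodine receptor, was at 7.68 ± 1.19 CPM in controls against 5.24 ± 0.907 CPM in deletion libraries. Each deletion library lay below every control, with a difference of -0.55 ± 0.17 (log2 scale, SE), not past the threshold (edgeR adjusted p = 0.0763). The same held for Hrc, at 23.5 ± 3.13 and 15.3 ± 4.12 CPM (log2 difference -0.62 ± 0.19, SE; edgeR adjusted p = 0.106). It also held for Fkbp1a, at 233 ± 6.70 and 206 ± 13.6 CPM (edgeR adjusted p = 0.101). Ryr2, at 9.35 ± 1.19 and 9.65 ± 2.28 CPM, overlapped (edgeR adjusted p = 0.918). The coupling count was 3 without control 213 and 1, Atp2a1, with sex as a covariate.

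Among 26 tested other channels and pumps of the muscle membrane, 5 rose and 1 fell, with a median log2 fold change of 0.18. Kcnj2, the inward rectifier that sets the resting potential, averaged 18.0 ± 1.86 and 29.0 ± 3.70 CPM and rose 1.61-fold (edgeR adjusted p = 0.00434). Cacna1h, a T-type calcium channel gene, rose 1.24-fold and the chloride channel gene Clcn2 1.22-fold. Kcne3, a potassium channel accessory subunit, was the gene that fell (log2 fold change -0.54, edgeR adjusted p = 0.032). The count of 5 became 3 without control 212, 2 without control 213 or deletion 208, and 0 with sex as a covariate (8 at an unadjusted p under 0.05).

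Of 11 other nicotinic subunits, which form the receptors of neurons and some other cells, 6 were tested, 2 rose and 0 fell by edgeR (4 and 0 at an unadjusted p under 0.05, 3 and 0 with DESeq2, 1 and 0 with limma voom). Chrna4 averaged 5.38 ± 0.274 and 10.6 ± 0.999 CPM and rose 1.98-fold (edgeR adjusted p = 0.0016) and Chrna7 averaged 1.46 ± 0.142 and 3.09 ± 1.08 CPM and rose 2.11-fold (edgeR adjusted p = 0.0397). The count was 1 without control 212, 213 or 220 or without deletion 208 or 211, and 0 with sex as a covariate (3 at an unadjusted p under 0.05).

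**Figure D4:**
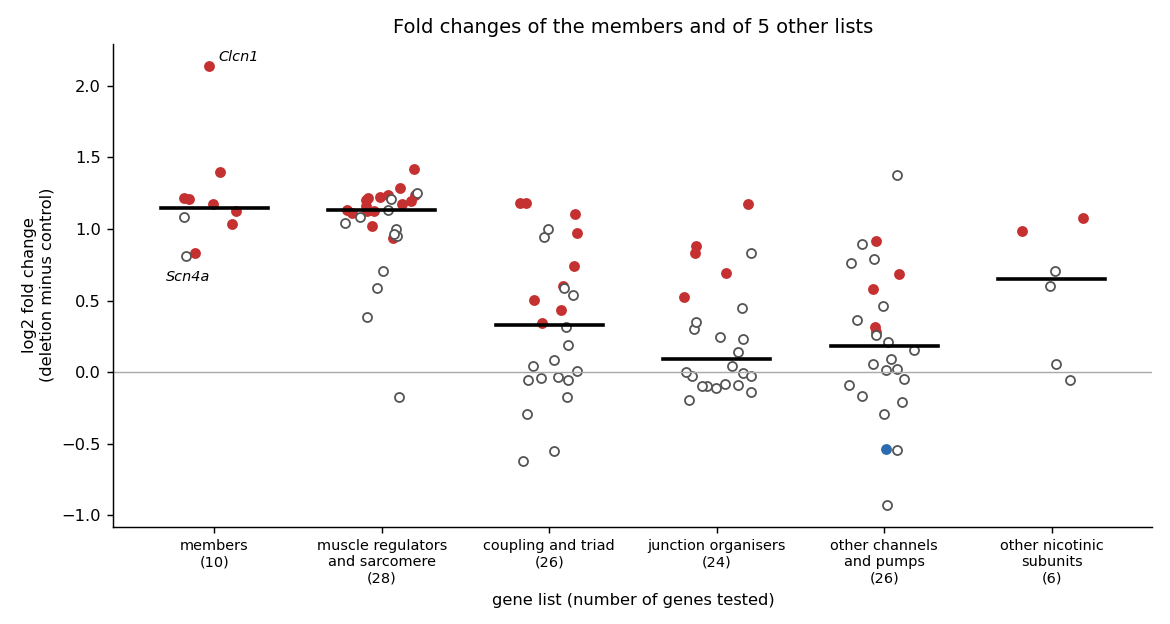
Log2 fold change (deletion minus control, vertical axis) of each tested gene in the 10 members and in 5 other lists (horizontal axis, number tested in brackets). Red and blue points were called higher and lower at an adjusted p under 0.05, open points were not, and black bars are medians. The members' median of 1.15 lies beside that of the muscle list, 1.13, and Clcn1 lies above all other genes shown.

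Markers of nerve were also measured. Of 14 neuron markers 12 were tested and 0 were called by edgeR (7 higher and 0 lower at an unadjusted p under 0.05, 6 higher with DESeq2, 2 higher with limma voom). Their summed level was 90.8 to 104 CPM in controls against 127 to 240 CPM in deletion libraries, and their median log2 fold change was 0.89. Of the cholinergic markers in the list, Chat had at most 3 estimated counts in any library and Slc18a3 at most 39, in deletion 208. Slc5a7, the choline transporter gene, was at 19.2 ± 1.71 and 20.6 ± 6.14 CPM (edgeR adjusted p = 0.857). Nefm, a neurofilament gene of axons, was at 12.8 ± 2.51 and 42.1 ± 19.2 CPM, highest in deletion 208 (edgeR adjusted p = 0.0877). The summed level of 8 Schwann cell and glial markers overlapped between groups (127 to 139 and 131 to 148 CPM). The part of nerve tissue in the values of Chrna4, Chrna7 and the junction genes was not tested.

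Heart markers were measured to check for other muscle. Nppa, Nkx2-5, Myl7 and Myl2 had at most 15 estimated counts in any library. Myh6, a myosin of heart atria, had 216, 100 and 117 counts in controls 212, 213 and 220 against 86, 485 and 43 in deletion 208, 211 and 221, and Hand2, which the jaw mesenchyme also expresses, had 45 to 180. Deletion 211, the library with the most Myh6 and Hand2, was also the highest in 8 of the 10 genes, and the part of heart tissue in their values was not tested.

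By the distance between centred log2 profiles over the 6 libraries, the genes nearest to the mean profile of the 10 were Smyd1, Cdh15, Klhl41, Alpk3, Casq2, Actn2, Mylk4 and Myl4, with root mean square differences of 0.045 to 0.087. Among the 10 themselves, Chrna1 was nearest to that mean (0.058), followed by Cacna1s and Chrnd (both 0.093) and Ryr1 (0.094). Clcn1 was farthest (0.498), then Scn4a (0.346), Musk (0.249), Cacng1 (0.226) and Chrnb1 (0.223).

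All 10 fold changes stayed above 0 in the 15 other settings run, with the median between 1.00 and 1.33 when 1 library was left out. DESeq2's Wald test called 9 of the 10 higher, Musk added, where it called 5.64% of genes higher, and limma voom 8, where it called 3.25%. Other scaling factors called 8 (3.59% of genes with upper quartiles and 3.65% with the others), as did fits with no filter (3.28%, with Musk in and Ryr1 out) and with a CPM filter (4.28%). With embryo sex as a covariate the fold changes ran from 0.73 (Scn4a) to 2.25 (Clcn1), and 2 genes were called, Chrna1 and Clcn1, where 0.337% of tested genes were called higher. That fit sets the deletion libraries against control 220 alone, since controls 212 and 213 are the only libraries of their sex. Leaving out both of these controls gave 1 call, Clcn1, where 0.215% of genes were called higher. Without deletion 221 all 10 were called, where 5.28% of genes were. The count was 7 without control 212 (2.47% of genes), 6 without control 213 (1.01%), 7 without control 220 (3.37%), 7 without deletion 208 (1.52%) and 8 without deletion 211 (2.02%).

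**Figure D5:**
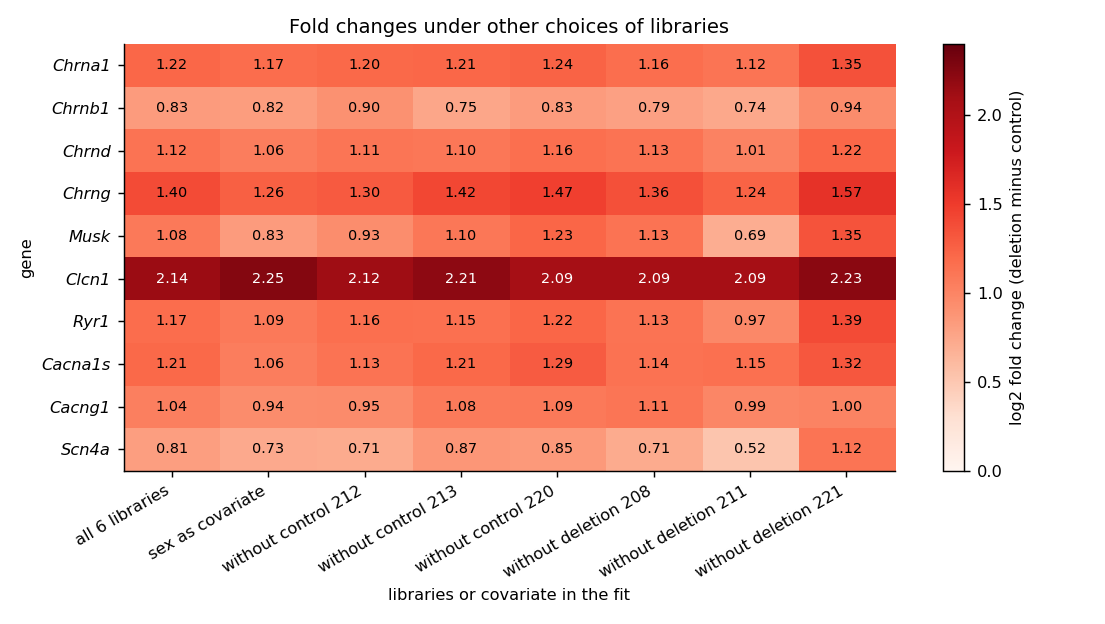
Log2 fold change (colour and number) of each of the 10 genes (vertical axis) in the fit of all 6 libraries, with embryo sex as a covariate, and with each library left out (horizontal axis). Values lie between 0.52 (Scn4a without deletion 211) and 2.25 (Clcn1 with sex as a covariate), and every row stays above 0.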

How the data were processed

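The authors deposited 1 table of estimated counts (expected counts) per gene symbol, not normalized: its column totals differ and 23.0% to 23.8% of values are not whole. CASAVA 1.8.2, STAR 2.4.1d, Partek and build mm10 are named, per the submitters' processing notes. Which of them made the counts, with which annotation and strand setting, is not given in the sources used here, so sense and antisense reads of overlapping genes cannot be told apart. Column names give the group but not the sample, and 0 columns and 0 rows were left without a group or a gene name.

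Counts were rounded, filtered with filterByExpr (minimum count 10, minimum total 15; 19284 genes kept) and scaled by TMM. The 3 deletion libraries were compared with the 3 controls by edgeR 4.0.16's quasi-likelihood test (robust, no covariates) in R 4.3.3, with Benjamini-Hochberg adjustment over all tested genes and a threshold of 0.05. The script was tested on simulated data. SE were taken as log2 fold change over the root of F. CPM use TMM-scaled library sizes, and log2 CPM a prior count of 0.5. Lengths, coordinates and strands come from GENCODE M21 (GRCm38, the assembly of mm10).

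The 10 genes and all gene lists were chosen with earlier results of these data known. Genes named beyond the 10 were a fixed set of pathway and muscle genes, up to 4 of smallest p past the threshold in each list (or 2 where none passed), and the 8 nearest profiles. Erbb4, Clcn2, Kcne3, Chat, Slc18a3, Slc5a7, Nppa, Nkx2-5, Myl7, Myl2, Myh6, Hand2, Myh11, Cnn1, Gm26604, Gm37759 and Fam131b were named after their values were seen. Some genes counted in the lists are not reported here by name. Alternatives were DESeq2 size factors, upper-quartile factors, TMM without muscle genes, DESeq2 1.42.0, limma 3.58.1 voom, no filter, a CPM filter (1 or more, at least 3 libraries), embryo sex as a covariate, leaving out the 2 controls of low Xist, and leaving out each library.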

Additional observations from a re-analysis of the deposited data

How the results depend on the processing

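The deletion against control test called 1352 of 19284 genes. This became 2125 with DESeq2, 129 with embryo sex as a covariate, 89 without the 2 controls of low Xist, and 356 to 1872 with 1 library left out. The number of the 10 members called higher was 8, with 2 under the sex covariate, 1 without the 2 controls and 6 to 10 with 1 library left out, and their median log2 fold change stayed between 1.00 and 1.33 in every setting. Junction genes called higher went from 5 to 8 with DESeq2, 0 with the sex covariate, 0 without the 2 controls and 1 to 6 with 1 library left out. Coupling genes went from 9 to 1 with the sex covariate, 0 without the 2 controls and 3 to 12 with 1 library left out. Other channels and pumps went from 5 to 8 with DESeq2, 0 with the sex covariate, 0 without the 2 controls and 2 to 6 with 1 library left out. Other nicotinic subunits went from 2 to 1 with limma voom, 0 with the sex covariate, 0 without the 2 controls and 1 to 3 with 1 library left out. Muscle genes went from 16 to 5 with the sex covariate, 1 without the 2 controls and 11 to 24 with 1 library left out. The fits with the sex covariate and without the 2 controls rest on 1 control of the deletion libraries' sex, which is fewer samples. Otherwise the cause was not tested. Scaling by DESeq2 size factors, upper quartiles or TMM without muscle genes moved no count of the lists by over 1.5 times. No paired analysis was possible because the table's columns carry none of the replicate numbers of the labels. Genes with few counts, such as Chrne, could not be compared at this depth.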

Other observations

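Markers of the cells that precede muscle fibres were also measured. Pax7, the factor of muscle progenitors, was at 4.27 ± 0.660 CPM in controls against 7.85 ± 2.62 CPM in deletion libraries (SD, n = 3 each; edgeR adjusted p = 0.0510), and Myf5, the early myogenic factor, at 1.91 ± 0.264 and 3.11 ± 0.955 CPM (edgeR adjusted p = 0.118). Both had every deletion library above every control without passing. Msc, a bHLH factor of branchial muscle, rose 2.03-fold (edgeR adjusted p = 0.0377). Of the 7 progenitor markers tested 2 rose and 0 fell by edgeR (4 and 1 at an unadjusted p under 0.05, 3 and 1 with DESeq2, 1 and 0 with limma voom). The call of Msc was lost in 8 of 15 other settings: limma voom, embryo sex as a covariate, without the 2 controls of low Xist, and without any single library other than deletion 221.

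Of 4 contractile genes of smooth muscle and myofibroblasts, 1 rose and 1 fell. Acta2, smooth muscle actin, which young skeletal muscle also makes, rose from 73.8 ± 4.05 to 115.6 ± 7.32 CPM (edgeR adjusted p = 0.000361). Tagln, the actin-binding protein transgelin, fell from 59.7 ± 2.63 to 24.1 ± 2.84 CPM (edgeR adjusted p = 4.87e-05). Both were called with embryo sex as a covariate and with each library left out. Myh11, smooth muscle myosin, was at 11.3 ± 1.30 and 9.16 ± 0.525 CPM (edgeR adjusted p = 0.149), and Cnn1, calponin, at 0.686 ± 0.141 and 0.733 ± 0.296 CPM (edgeR adjusted p = 0.921).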
